A study of Mus musculus with 6 samples.

Results

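The genes *Hmga1*, *Hmga2*, *Lin28a*, *Lin28b*, *Igf2bp1*, *Igf2bp2* and *Igf2bp3* encode chromatin and RNA-binding proteins of fetal tissue that many tumours express again. They were picked by name, as 7 of the 24982 genes listed in the files, and they were chosen on measured values, because *Hmga2* was much lower in DKSFM cells than in KSFM-Ca2+ cells in these same libraries. The comparison of the lines therefore describes the members and does not test them.

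RNA-seq was done on 6 libraries of C57BL/6 mouse keratinocytes from neonatal skin, 3 for each of 2 cell lines. KSFM-Ca2+ cells were a line established and grown in the low calcium medium of that name. DKSFM cells descended from KSFM-Ca2+ cells and had been adapted to growth in DKSFM, a defined keratinocyte medium. Neither line was treated. Because one line was derived from the other by adaptation, the medium, the adaptation and any selection of cells on the way cannot be told apart. The sources do not say whether replicates were separate cultures, so p-values measure only the spread between these libraries, which may be technical. The deposited files of KSFM-Ca2+ replicate 3 and of all 3 DKSFM replicates are marked as combined, a word that is not explained, and this marking moves with the line.

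The values are deposited as coverage and are read here as mean read coverage per base of each gene. How they were computed is not stated and their scaling to gene length was not tested, so levels set side by side between genes rest on this reading. Coverage summed over genes was 1601676, 1238411 and 1057750 in KSFM-Ca2+ replicates 1 to 3, and 1174348, 1239438 and 1170675 in DKSFM replicates 1 to 3. Listed values are as deposited. Normalized values are scaled between libraries, and fold changes are DKSFM over KSFM-Ca2+ on the log2(normalized coverage + 0.1) scale, which understates changes of genes with little coverage. A gene was called higher or lower at an adjusted p under 0.01 in limma with a fold change of at least 2, over the 12409 genes that reached 0.5 after normalization in 3 or more libraries.

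The keratinocyte label was checked against marker genes. All 6 keratinocyte markers were present in both lines, led by the basal keratin gene *Krt14* at 11975 ± 225 in KSFM-Ca2+ cells and 29719 ± 1517 in DKSFM cells (normalized coverage, mean ± SD, n = 3 libraries here and below). The summed coverage of the keratinocyte list was 17618, 18029 and 17760 in the KSFM-Ca2+ libraries and 43088, 39258 and 43451 in the DKSFM libraries. Most of it came from *Krt14* and from *Krt5*, at 4684 ± 26.1 and 11148 ± 791. The other 4 markers differed less, with *Trp63* at 404 and 443, *Itga6* at 258 and 285, *Itgb4* at 321 and 192 and *Cdh1* at 159 and 146 in the respective lines. Of 8 fibroblast markers, 6 were listed at 0 in every library, among them the collagen genes *Col1a1*, *Col1a2* and *Col3a1*. The fibroblast sum was 8.76, 8.21 and 8.38 in KSFM-Ca2+ cells and 2.44, 2.1 and 2.23 in DKSFM cells, and most of it in KSFM-Ca2+ cells came from *Twist2*, at 7.34 ± 0.272. *Pdgfra*, the other marker above 0, was at 1.11 ± 0.206 in KSFM-Ca2+ cells and 2.22 ± 0.119 in DKSFM cells, where it made up most of the sum. Of the immune list, the T cell gene *Cd3e* was listed at 0 throughout and *Cd68* was the most abundant, at 11.5 ± 0.908 and 17.6 ± 3.61. *Ptprc*, *Lyz2*, *Itgam* and *Cd207* had means under 0.1 in both lines, so the sum was nearly all *Cd68*. The immune sum was 10.9, 11.2 and 12.6 in KSFM-Ca2+ cells and 13.7, 18.9 and 20.7 in DKSFM cells. Among endothelial markers *Cdh5* was listed at 0 and *Pecam1* was the most abundant, with sums of 2.82, 3.16 and 3.3 against 8.28, 8.29 and 7.42. Melanocyte and Merkel cell sums did not exceed 1.07 in any library, and *Tyr*, *Dct* and *Atoh1* were listed at 0. Of 6 markers of pluripotent stem cells, which express LIN28A, 5 including *Pou5f1* and *Nanog* were listed at 0, and the whole sum was *Sox2*, at 3.97 ± 0.786 and 7.69 ± 0.419. The part of these small sums in the results below was not tested.

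HMGA proteins bind AT-rich DNA in the minor groove and bend chromatin, and *Hmga2* is active in embryonic and stem cells and silent in most adult tissue. LIN28 proteins bind precursors of the let-7 microRNAs and block their maturation, while let-7 in turn represses the mRNAs of *Hmga2*, *Lin28* and *Igf2bp* genes through sites in their 3′ UTRs. IGF2BP proteins bind mRNAs, many of them through m6A marks, and are known for keeping these mRNAs stable or under translational control.

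The let-7 family is defined by its seed, bases 2 to 8, which is shown in capitals because it is the part that pairs with the members' mRNAs. RefSeq (GRCm38.p6) gave 11 mature entries of let-7 and miR-98, with 9 different names, and all of them carried the same seed. A set that shows how they differ outside the seed follows.
let-7a: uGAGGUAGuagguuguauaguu
let-7d: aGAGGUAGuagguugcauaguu
let-7g: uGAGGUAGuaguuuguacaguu
miR-98: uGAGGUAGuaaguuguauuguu

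The complement of the seed, CTACCTC, was searched in the sense strand of 1 3′ UTR per gene from GENCODE M21 (GRCm38). It was the longest among transcripts matched to a RefSeq mRNA, and 3′ UTRs of other transcripts were not searched. Of 19256 genes with a 3′ UTR, 1635 (8.49%) held at least 1 match and 565 (2.93%) held the longer CTACCTCA, which contains the first motif and adds an A opposite let-7 base 1. All 7 members held a match. *Hmga2*, *Lin28b* and *Igf2bp1* had 4 each, a number reached by 10 of the 19256 genes (0.0519%). *Lin28a* had 2, and *Hmga1*, *Igf2bp2* and *Igf2bp3* had 1 each. A match is a description of the sequence and not proof of a site in use. The stretches of 22 bases that end opposite let-7 base 1 are shown for the 3 members with 4 matches, with the matching bases in capitals, in the sense of the mRNA and from the stop codon onwards. All 3 genes lie on the minus strand.
Hmga2, chr10:120364224-120364245: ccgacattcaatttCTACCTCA
Hmga2, chr10:120362987-120363008: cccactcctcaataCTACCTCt
Hmga2, chr10:120362549-120362570: tgatttgcaaggaaCTACCTCc
Hmga2, chr10:120361691-120361712: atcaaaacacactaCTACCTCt
Lin28b, chr10:45381022-45381043: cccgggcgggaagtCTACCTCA
Lin28b, chr10:45378648-45378669: atacttgttagtaaCTACCTCt
Lin28b, chr10:45378476-45378497: tttacagcacatggCTACCTCc
Lin28b, chr10:45377060-45377081: aatgatggcaccgaCTACCTCt
Igf2bp1, chr11:95961778-95961799: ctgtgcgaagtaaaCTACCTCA
Igf2bp1, chr11:95959357-95959378: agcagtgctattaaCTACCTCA
Igf2bp1, chr11:95958763-95958784: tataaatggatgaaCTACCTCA
Igf2bp1, chr11:95958140-95958161: cttttggttttaatCTACCTCt

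In *Hmga2* and *Lin28b* the match of 8 bases was the one nearest the stop codon, starting at base 58 of a 3′ UTR of 3014 bases and at base 36 of one of 4445 bases. *Igf2bp1* had 3 matches of 8 bases, spread over a 3′ UTR of 6337 bases.

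Of the 7 members, 5 had enough coverage to be tested and all 5 had a lower mean in DKSFM cells. *Hmga2*, *Hmga1* and *Igf2bp1* met the limits for a lower call, which 10.5% of tested genes did, and no member met those for a higher call, which 13.2% did. In each of the 5 the 3 libraries of one line lay above the 3 of the other, as in 83.3% of tested genes. Nothing is read from these shares, since this contrast chose the members. In bulk RNA, fewer cells that express a gene and less of its RNA per cell cannot be told apart.

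*Hmga2* (chr10:120361275-120476469, minus strand) encodes the HMGA protein of embryonic and stem cells. Its listed coverage was 523.7, 416.7 and 384.8 in KSFM-Ca2+ replicates 1 to 3 and 18.4, 18.5 and 19.5 in DKSFM replicates 1 to 3. Every KSFM-Ca2+ library was far above every DKSFM library, and the libraries of a line lay close together. After normalization the levels were 422 ± 28.7 and 19.6 ± 1.09, a log2 fold change of -4.42 (standard error, SE, 0.06), so that DKSFM cells held 4.64% of the KSFM-Ca2+ level. The gene went from a level above 96% of tested genes to one above 43.7% of them, and 89 of the 12409 tested genes had a more negative log2 fold change. Coverage did not reach 0 in DKSFM cells, where the lowest library still held an approximate 814 reads. A pseudogene copy, *Hmga2-ps1*, had 3 ± 0.602 and 0.689 ± 0.242. This was 0.711% and 3.52% of the *Hmga2* level in the respective line, and reads could be shared between the 2.

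*Hmga1* (chr17:27556497-27563674, plus strand) encodes the HMGA protein that is common in dividing cells. Its listed coverage was 1595.4, 1283.5 and 1094.7 in the KSFM-Ca2+ libraries and 518.4, 561.1 and 598.3 in those of DKSFM cells. The lines did not overlap. Normalized levels were 1259 ± 38.9 and 582 ± 45.8, with a log2 fold change of -1.12 (SE 0.05). It remained above 97.4% of tested genes in DKSFM cells. The near-identical copy *Hmga1b* had 18.1% to 18.2% of the *Hmga1* coverage in each of the 6 libraries, so its row may hold reads of *Hmga1* and the coverage of both is uncertain. *AI413582*, a gene on the opposite strand that overlaps *Hmga1*, had 82.2 ± 5.79 and 37.6 ± 0.99, which was 6% to 6.89% of the *Hmga1* coverage in each library. The authors aligned reads with a strand setting, but whether coverage was computed by strand is not stated, so reads of this pair may not be separate. The ratio of *Hmga1* to *Hmga2* coverage was 3.05, 3.08 and 2.84 in the KSFM-Ca2+ libraries and 28.2, 30.3 and 30.7 in the DKSFM libraries.

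*Lin28b* (chr10:45376620-45486395, minus strand) encodes a LIN28 protein that binds let-7 precursors. It was low in both lines, listed at 3.5, 3.0 and 2.3 in the KSFM-Ca2+ libraries and at 1.8, 2.0 and 1.8 in those of DKSFM cells. Normalized levels of 2.78 ± 0.161 and 1.94 ± 0.0514 did not overlap and gave a log2 fold change of -0.50 (SE 0.11). An approximate 114 to 222 reads per library stood behind these values, with 6.36 reads to each step of 0.1. *Lin28a* (chr4:134003330-134018841, minus strand), the LIN28 gene of pluripotent stem cells, was listed at 0 in all 6 libraries, and about 4.12 reads would make up a step of 0.1.

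The *Igf2bp* genes encode a family of mRNA-binding proteins. *Igf2bp1* (chr11:95957163-96005940, minus strand) was listed at 6.9, 5.4 and 4.8 in the KSFM-Ca2+ libraries and at 2.4, 2.4 and 2.2 in those of DKSFM cells. The lines did not overlap. Normalized levels were 5.42 ± 0.214 and 2.43 ± 0.111, with a log2 fold change of -1.13 (SE 0.09). With a pseudocount of 1 the log2 fold change was -0.91, under the 2-fold limit. *Igf2bp2* (chr16:22059009-22163299, minus strand), the family member most often found in adult tissue, was listed at 66.0, 49.9 and 43.7 in KSFM-Ca2+ cells and at 41.5, 40.5 and 42.0 in DKSFM cells. Its normalized levels of 50.4 ± 1.11 and 43 ± 2.22 were close but did not overlap, with a log2 fold change of -0.23 (SE 0.05). *Igf2bp3* (chr6:49085223-49214957, minus strand) was listed at 0 in all 6 libraries, and about 5.11 reads would make up a step of 0.1.

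**Figure D1:**
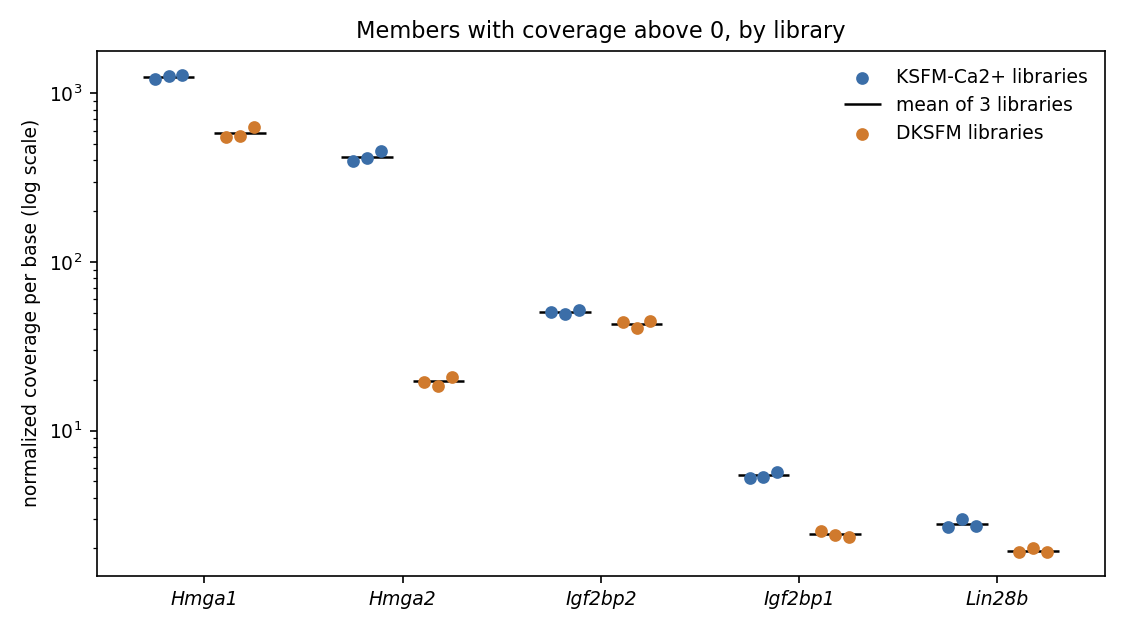
Normalized coverage per base (log axis) of the 5 members above 0, with 1 point per library, 3 for each line, and a bar at the mean of 3 libraries. *Hmga2* drops from 422 to 19.6 and passes under *Igf2bp2*, which stays at 50.4 and 43, while the other 3 keep their place in the order.

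In KSFM-Ca2+ cells the order of levels was *Hmga1*, *Hmga2*, *Igf2bp2*, *Igf2bp1* and *Lin28b*, and in DKSFM cells *Hmga2* and *Igf2bp2* changed places. No neighbours in either order overlapped between their libraries. The closest were *Igf2bp1* and *Lin28b* in DKSFM cells, where the lowest *Igf2bp1* library was at 2.33 and the highest *Lin28b* library at 2. Coverage of *Igf2bp1* was 1.95 times that of *Lin28b* in KSFM-Ca2+ cells and 1.25 times in DKSFM cells. The plot of levels in both lines places *Hmga1* and *Hmga2* among the abundant genes of KSFM-Ca2+ cells and *Lin28b* and *Igf2bp1* near the lower end of the tested genes.

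**Figure D2:**
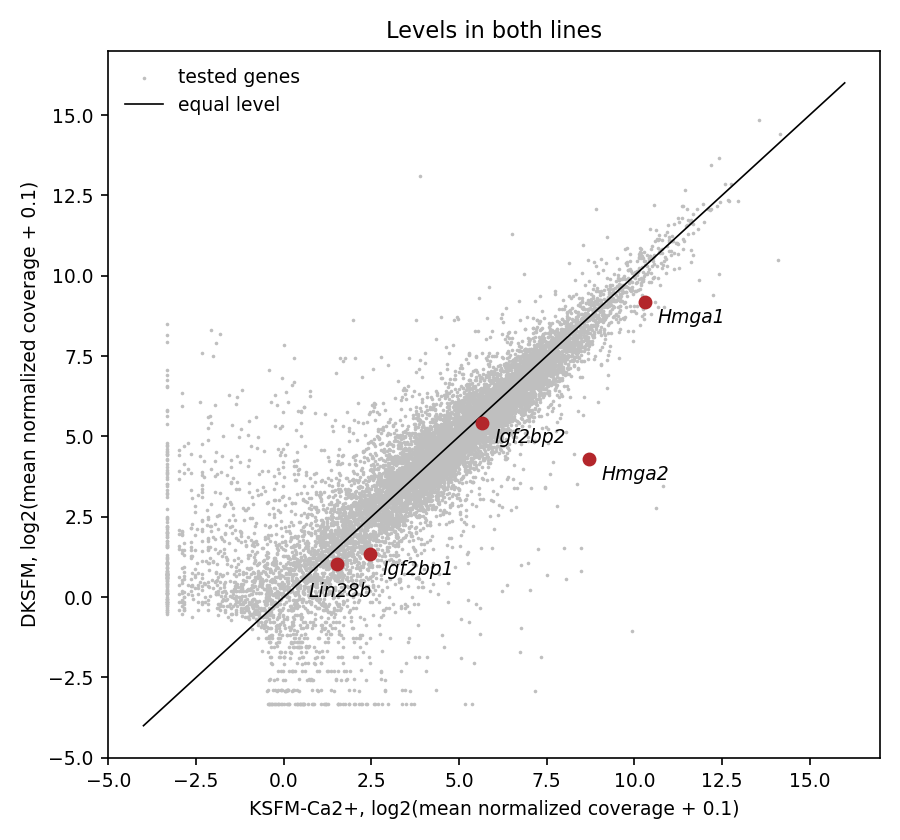
Mean normalized coverage of the 12409 tested genes in KSFM-Ca2+ cells (x axis) and DKSFM cells (y axis), both as log2(coverage + 0.1), with the 5 tested members in red and a line of equal level. *Hmga2* lies well under the line at 422 and 19.6, and *Igf2bp2* lies close to it at 50.4 and 43.

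The 5 tested genes whose centred log2 profile over the 6 libraries lay nearest to that of *Hmga2* by Euclidean distance were *Cp*, *Chil1*, *Trim35*, *Hap1* and *Gfra1*, at distances of 0.286, 0.288, 0.363, 0.365 and 0.379. *Cp*, which encodes ceruloplasmin, was listed at 84.4, 63.6 and 47.8 in KSFM-Ca2+ cells and at 2.6, 2.7 and 2.7 in DKSFM cells. *Trim35* was at 25.7 ± 0.503 and 1.25 ± 0.165, and *Hap1* at 21 ± 0.485 and 0.968 ± 0.125. *Chil1* and *Gfra1* were listed at 0 in all DKSFM libraries and at no more than 3.0 in KSFM-Ca2+ cells, so their nearness depends on the pseudocount. With 2 groups of 3 libraries, such likeness is mainly a like difference between the lines.

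In the 20 Mb around *Hmga2*, 123 other genes were tested, and their median log2 fold change lay 0.26 above that of all tested genes. The 580 other tested genes of chromosome 10 lay 0.25 above it. Of the genes in the window 7.32% were called lower and 13.8% higher, where 10.5% and 13.2% of all tested genes were. The same difference of medians was 0.31 for *Lin28b*, 0.32 for *Igf2bp2*, 0.11 for *Hmga1* and -0.17 for *Igf2bp1*. The nearest listed genes on one side of *Hmga2* were *Llph*, at 39.8 and 53.8 in the respective lines, *Tmbim4*, at 89.8 and 106, and *Irak3*, at 2.46 ± 0.447 and 0.349 ± 0.167. *Irak3*, a brake on Toll-like receptor signalling, was the only one of the 3 called lower (log2 fold change -2.56, SE 0.29, adjusted p = 5.48e-05 by limma), and it was under the filter value of 0.5 in DKSFM replicates 1 and 2. On the other side *Msrb3* was at 7.86 and 12.1 and was not called, and *4921513I03Rik* and *Gm15910* were listed at 0. Around the other 6 members 36 genes were nearest, of which 20 were tested, with 2 lower, 1 higher and 17 not called. Of those called by limma, *B4galnt2* beside *Igf2bp1* was listed at 15.7, 11.1 and 8.8 in KSFM-Ca2+ cells and at 0 in all DKSFM libraries, and *Etv5* beside *Igf2bp2* fell from 14.2 ± 0.158 to 0.762 ± 0.215. *Crybg2* beside *Lin28a* rose from 0.391 ± 0.0837 to 6.73 ± 0.965. *B4galnt2* passed the filter only through the KSFM-Ca2+ libraries and *Crybg2* only through those of DKSFM cells, so a filter on every library leaves both out, as it does *Irak3*, and the size of the *B4galnt2* change depends on the pseudocount. The 17 not called had log2 fold changes from -0.53 to 0.81. They were *Nudt3* and *Rps10* beside *Hmga1*, *Dhdds*, *Hmgn2* and *Rps6ka1* beside *Lin28a*, *Hace1* beside *Lin28b*, *4833417C18Rik*, *Snf8* and *Ube2z* beside *Igf2bp1*, *Senp2*, *Tmem41a*, *Tra2b* and *Gng5-ps* beside *Igf2bp2*, and *Gpnmb*, *Tra2a*, *Ccdc126* and *Fam221a* beside *Igf2bp3*. The 16 with too little coverage to test were *Grm4*, *Mir7218*, *Mir7217*, *Pacsin1*, *Cd52*, *Ubxn11*, *Bves*, *Popdc3*, *Gm15934*, *D030045P18Rik*, *Grik2*, *Gngt2*, *Gip*, *Liph*, *4930563H07Rik* and *Svs1*. Of genes that overlap a member, *AI413582*, at *Hmga1*, fell from 82.2 ± 5.79 to 37.6 ± 0.99, and *Mir3063*, at *Igf2bp1*, from 8.41 ± 1.54 to 3.1 ± 1.5. *Malsu1*, at *Igf2bp3*, was at 52.4 ± 0.627 and 51.7 ± 3 and was not called, and *Mir763*, at 0.675 ± 0.71 and 0.0707 ± 0.122, and *9230105E05Rik*, at 0, both at *Hmga2*, were not tested. Whether these values share reads with those of the members was not tested.

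**Figure D3:**
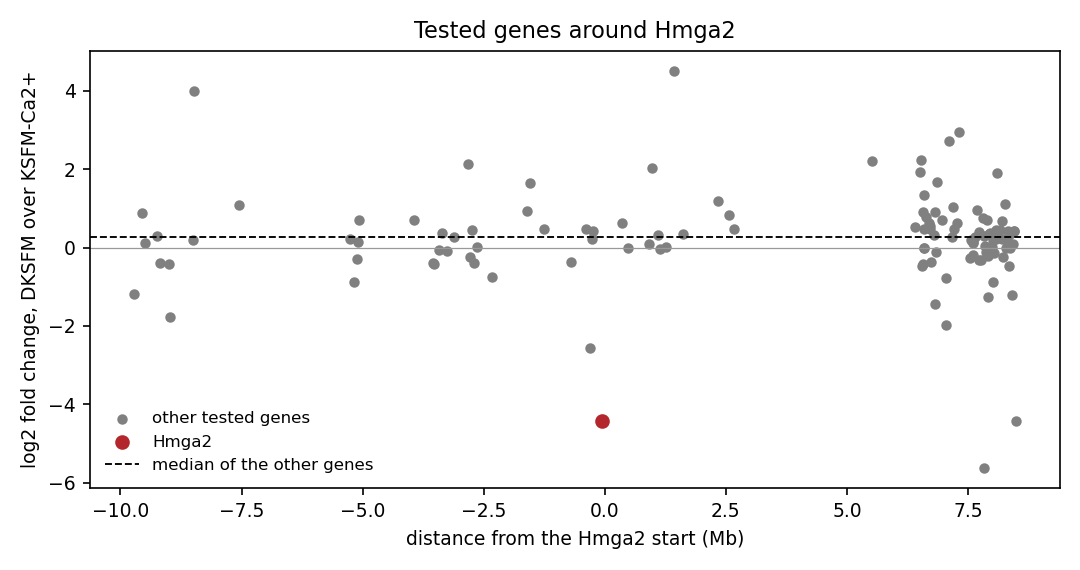
Log2 fold change (DKSFM over KSFM-Ca2+) of tested genes against their distance in Mb from the *Hmga2* start along the chromosome, 1 point per gene, with *Hmga2* in red and a dashed line at the median of the other genes. *Hmga2* stands at -4.42. The other genes run from -5.62 to 4.51, and most of them lie nearer to 0.

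Genes that mature let-7 or act with it were described next. Of 20 listed, 17 were tested and none was called in either direction by limma, where 10.5% of all tested genes were lower and 13.2% higher. The median log2 fold change was -0.14. Of the 17, 10 had an adjusted p under 0.01 at less than 2-fold, a share that was not computed over all tested genes. At an unadjusted p under 0.05, 9 were lower and 5 higher. Of the 11574 tested genes with a 3′ UTR, 4908 were lower and 4707 higher at that limit. The most abundant was *Hnrnpa1*, at 1230 ± 27.1 and 1025 ± 32.7. The processing enzyme gene *Dicer1* was at 12.9 ± 0.477 and 12.9 ± 0.5. *Ago2*, which encodes the slicing Argonaute, was at 9.29 ± 0.75 and 5.34 ± 0.32 (log2 fold change -0.79, SE 0.09, adjusted p = 5.11e-05). The export factor gene *Xpo5* was at 64.5 ± 0.453 and 43.4 ± 1.33, and *Tut4*, whose product adds uridines to let-7 precursors bound by LIN28, at 11.9 ± 0.283 and 8.15 ± 0.314. *Trim71*, itself a let-7 target with 4 matches, was listed at 0 in all 6 libraries. Of the 12 rows for let-7 and mir-98 hairpins, 6 were at 0 throughout and the highest listed value was 1.5. Libraries of poly(A) RNA do not measure mature microRNAs, so the let-7 level in these cells was not measured.

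Of 26 known let-7 targets outside the members, 24 were tested, with 2 lower, 2 higher and a median log2 fold change of 0.07, where 10.5% and 13.2% of all tested genes were called and their median was 0. *Ccnd1*, which encodes cyclin D1, fell from 759 ± 10.6 to 175 ± 6.17 (log2 fold change -2.12, SE 0.03, adjusted p = 1.08e-09 by limma), and *Ccnd2* rose from 91.4 ± 4.39 to 266 ± 14.1 (1.54, SE 0.05, adjusted p = 3.84e-08). The insulin receptor substrate gene *Irs2* fell from 24.2 ± 0.558 to 7.68 ± 0.61. The cell cycle transcription factor gene *E2f2* rose from 0.594 ± 0.28 to 9.68 ± 0.982, with KSFM-Ca2+ libraries listed at 1.2, 0.4 and 0.4. Under a filter that asked for coverage in every library, 1 of these genes was higher. *Cdc34* was the most abundant by the mean over both lines, at 666 ± 21.1 and 717 ± 15.7, and was not called. In KSFM-Ca2+ cells *Ccnd1* was above it. Of the 26, 17 held a match to the seed, led by *Nr6a1* with 8, which was at 5.05 ± 0.308 and 7.61 ± 0.549. Among the called genes *Irs2* had 1 match and *E2f2* had 2, while *Ccnd1* and *Ccnd2* had none in the 3′ UTR searched.

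Over all tested genes with a 3′ UTR, the medians were close whatever the number of matches. With the members left out, the median log2 fold change was -0.01 for 10429 genes with 0 matches, -0.03 for 1003 genes with 1 and -0.04 for 122 genes with 2. The shares called lower were 10.4%, 10.6% and 10.7%, and the shares called higher 12.9%, 12.8% and 13.9%. Among 15 genes with 3 or more matches the median was -0.06 and none was called by limma in either direction. The numbers lower and higher at an unadjusted p under 0.05 were 7 and 4, against 4423 and 4258 of the 10429 genes with 0 matches. The classes also differed in 3′ UTR length, with medians of 982, 2109, 3538 and 4262 bases. Of the 10 genes with at least 4 matches, 7 were tested. The 2 called lower, where 10.5% of all tested genes were, were the members *Hmga2* and *Igf2bp1*. Nothing is read from this count, since the comparison of the lines chose the members. One of the 10, *D10Wsu102e*, has an annotated 3′ UTR of 122583 bases, and *D1Ertd622e*, with 3 matches, one of 39397 bases. *Nudt12*, with 7 matches, was at 9.07 ± 0.0923 and 4.72 ± 0.3 (log2 fold change -0.93, SE 0.08), short of the 2-fold limit.

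**Figure D4:**
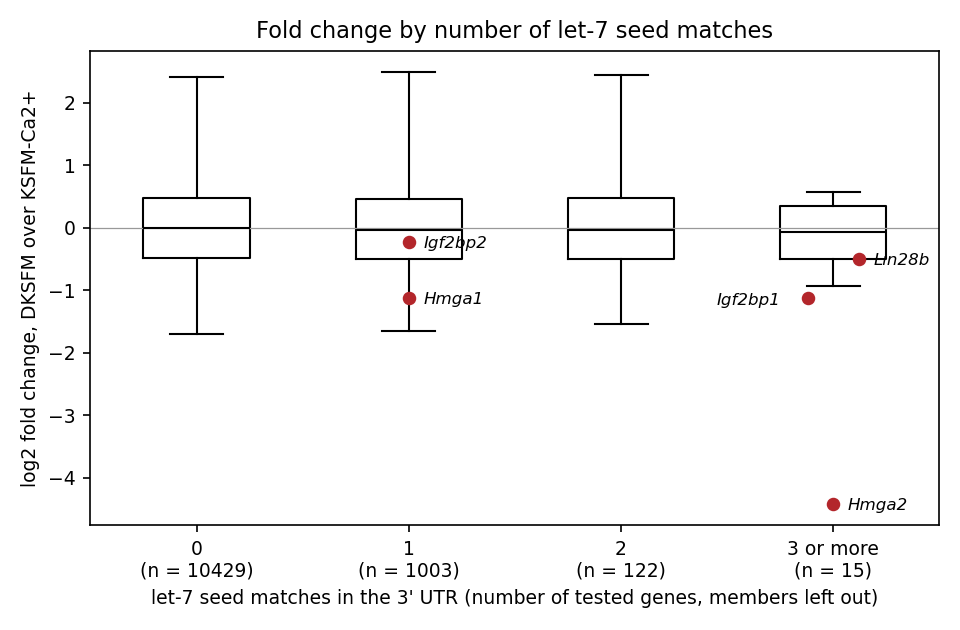
Log2 fold change (DKSFM over KSFM-Ca2+) by number of let-7 seed matches in the 3′ UTR. Boxes give the quartiles and median of tested genes other than the members, whiskers the central 90% of genes, and red points the 5 tested members. The medians run from -0.01 with 0 matches to -0.06 with 3 or more, and *Hmga2* lies far under its box at -4.42.

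Of 12 other high mobility group genes listed, 11 were tested, 1 was lower and 1 higher, where 10.5% and 13.2% of all tested genes were, and the median log2 fold change was -0.20. *Hmgb2*, which is expressed in dividing cells, fell from 247 ± 9.75 to 113 ± 5.59 (log2 fold change -1.12, SE 0.04, adjusted p = 1.19e-07 by limma). The nucleosome-binding gene *Hmgn3* rose from 11.2 ± 1.83 to 71.7 ± 2.59 (2.68, SE 0.10, adjusted p = 9.55e-08). *Hmgn1* was the most abundant, at 641 ± 10.1 and 703 ± 12.6.

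Of 13 genes linked to HMGA2 as targets or partners, 12 were tested, 2 were lower and 3 higher, where 10.5% and 13.2% of all tested genes were, and the median log2 fold change was -0.33. Whether any of these differences is tied to the level of *Hmga2* was not tested. *Ccna2*, a cyclin gene, fell from 114 ± 0.863 to 53.2 ± 1.05 (log2 fold change -1.09, SE 0.03, adjusted p = 1.88e-08 by limma). The repair gene *Ercc1* fell from 177 ± 5.43 to 39.4 ± 1.27 (-2.17, SE 0.04, adjusted p = 2.02e-09). *Cdkn2a*, a cell cycle inhibitor locus, rose from 39.1 ± 1.43 to 195 ± 5.64 (2.32, SE 0.04, adjusted p = 1.61e-09). *Cdkn2b* was at 36.3 ± 2.91 and 71.8 ± 4.57, just short of the 2-fold limit. *Snai2*, a transcription factor gene of basal keratinocytes, rose from 66.3 ± 2.42 to 136 ± 5.68. The third higher gene was *Igf2*, from 2.48 ± 0.367 to 39.7 ± 2.81. *Junb* was the most abundant gene of the list by the mean over both lines, at 168 ± 6.88 and 95.7 ± 0.784, and was not called. *Ercc1* was above it in KSFM-Ca2+ cells, and *Cdkn2a* and *Snai2* were above it in DKSFM cells.

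Among 8 mRNAs known to be bound by IGF2BP proteins, 7 were tested, 2 were lower and 2 higher, where 10.5% and 13.2% of all tested genes were, with a median log2 fold change of 0.10. *Cd44*, a hyaluronan receptor gene, fell from 1200.0 ± 52.8 to 432 ± 19.9 (log2 fold change -1.47, SE 0.04, adjusted p = 2.58e-08 by limma). *Actb*, the actin mRNA in which zipcode binding was described, was the most abundant, at 3242 ± 288 and 1617 ± 145, and sat at the 2-fold limit. Without KSFM-Ca2+ replicate 3, or without DKSFM replicate 2, 1 gene of the list was lower instead of 2, as with relative log expression size factors. *Igf2*, the growth factor mRNA that gave the family its name, rose as given above (log2 fold change 3.96, SE 0.11, adjusted p = 2.04e-08). *Gli1* rose from 0.254 ± 0.0373 to 1.04 ± 0.177 at low coverage, and with a pseudocount of 1 or a filter on every library 1 gene of the list was higher instead of 2. *Myc* was at 410 ± 8.85 and 612 ± 24.3 and was not called.

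All 15 listed genes of the m6A machinery were tested, 1 was lower and 0 higher by limma, where 10.5% and 13.2% of all tested genes were, and the median log2 fold change was -0.05. At an unadjusted p under 0.05, 5 were lower and 3 higher, where 4908 and 4707 of the 11574 tested genes with a 3′ UTR were. The reader and helicase gene *Ythdc2* fell from 7.72 ± 0.417 to 3.81 ± 0.194, at the 2-fold limit, and was not called without KSFM-Ca2+ replicate 2, without KSFM-Ca2+ replicate 3 or without DKSFM replicate 1, where the list had 0 lower genes, nor with relative log expression size factors or pseudocounts of 0.5 and 1. The reader gene *Ythdc1* was the most abundant, at 220 ± 9.62 and 279 ± 7.49, and was not called. The writer genes *Mettl3* and *Mettl14* were at 15.1 ± 0.353 and 26 ± 0.283 in KSFM-Ca2+ cells and at 12.7 ± 0.658 and 26.7 ± 1.01 in DKSFM cells.

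Of 9 other oncofetal genes listed, 6 were tested, 3 were higher and 0 lower by limma, where 13.2% and 10.5% of all tested genes were. With an unadjusted p under 0.05 as the limit, 6 were higher and 0 lower, where 4707 and 4908 of the 11574 tested genes with a 3′ UTR were. The median log2 fold change was 2.24, and 0.80 over the 3 genes that reach the filter value in every library, a median added after seeing the data. *H19*, an imprinted noncoding RNA that hosts a microRNA, was listed at 0.5, 0.4 and 0.2 in the KSFM-Ca2+ libraries and at 71.1, 98.4 and 83.1 in those of DKSFM cells (log2 fold change 7.66, SE 0.17, adjusted p = 5.48e-09 by limma). *Gpc3*, which encodes glypican 3, rose from 0.162 ± 0.0691 to 1.62 ± 0.32. *Igf2* was the third, with the values given above. Under a filter on every library, which leaves out *H19*, *Gpc3* and *Mdk*, 1 was higher. *Mdk*, which encodes midkine, was at 1.06 ± 0.834 and 3.44 ± 1.62 and the lines overlapped. *Dlk1* and *Sall4* were listed at 0 in all 6 libraries.

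Proliferation genes were lower in DKSFM cells alongside *Hmga2* and *Hmga1*. The authors had reported fewer transcripts of cell cycle and proliferation genes in DKSFM cells from this RNA-seq. The counts below therefore describe the list and do not test it. All 10 listed genes had a negative log2 fold change, 6 were lower past the limits against 10.5% of all tested genes, and the median was -1.16. None was higher by limma, where 13.2% of all tested genes were. None was higher at an unadjusted p under 0.05 either, where 4707 of the 11574 tested genes with a 3′ UTR were. *Top2a* fell from 221 ± 2.2 to 78.8 ± 1.67 (log2 fold change -1.49, SE 0.03, adjusted p = 3.26e-09 by limma) and *Bub1* from 86.5 ± 2.92 to 27.3 ± 2.21. *Mki67* fell from 73.7 ± 1.4 to 28.3 ± 1.45 and *Mcm5* from 157 ± 6.91 to 66.6 ± 6.38. *Pcna*, the most abundant, fell from 382 ± 11.2 to 163 ± 4.34. The part of the difference in proliferation in the lower *Hmga* levels was not tested.

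**Figure D5:**
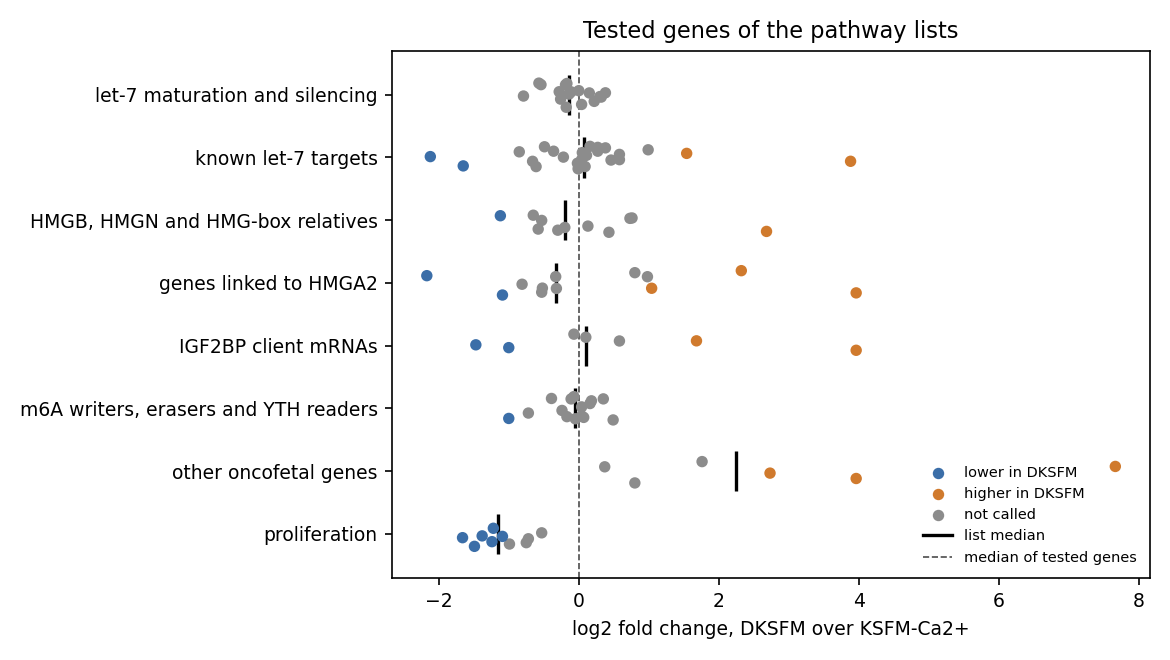
Log2 fold change (DKSFM over KSFM-Ca2+) of the tested genes of each pathway list, 1 point per gene, blue where called lower, orange where called higher and grey where not called, with a black bar at the list median and a dashed line at the median of all tested genes. Proliferation genes have a median of -1.16 and other oncofetal genes one of 2.24, or 0.80 over the 3 with coverage in every library.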

How the data were processed

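RNA-seq of 3 KSFM-Ca2+ and 3 DKSFM libraries was analysed from the deposited gene files. Single reads of directional libraries made from poly(A) RNA were aligned by the authors with STAR (mm10, RefSeq genes), Salmon served for quantification and DESeq2 for their comparison of the lines. The authors deposited a coverage signal per gene, written to 1 decimal and not scaled to library size. How it was computed and what combined means are not stated. Coverage gives no counts, so no count model was fitted here, and steps of 0.1 limit low values. Approximate reads are coverage times median transcript length over a read length of 85 bases.

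Scaling between libraries used a trimmed mean of M values without weights (30% and 5% trimmed). Genes with at least 0.5 in at least 3 libraries were fitted by limma with an intensity trend on log2(value + 0.1), two-sided, with Benjamini-Hochberg adjustment over 12409 genes and no covariate. The procedure was tested on simulated data. R 4.3.3, limma 3.58.1, Python 3.11.15, pandas 2.3.3 and matplotlib 3.10.9 were used. Positions, lengths and 3′ UTRs were those of GENCODE M21. Symbols matched 24498 genes, synonyms 56 more, and 428 had no match.

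The members and lists were chosen with earlier results of these data known. Named were all members, from each list the 4 called genes with the largest log2 fold changes and the gene most abundant over both lines, other list genes with their values, the 5 profiles nearest *Hmga2*, the 3 nearest genes on each side of a member, let-7 hairpins and genes with seed matches. Alternatives were other scalings, filters, pseudocounts and thresholds, no trend, a replicate block and each library left out.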

Additional observations from a re-analysis of the deposited data

How the results depend on the processing

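All 5 tested members had a negative log2 fold change under every alternative run, from -4.53 to -4.36 for *Hmga2*, -1.18 to -1.07 for *Hmga1*, -1.30 to -0.91 for *Igf2bp1*, -0.71 to -0.36 for *Lin28b* and -0.26 to -0.18 for *Igf2bp2*. The values that moved by more than the spread between replicates were those of *Lin28b* and *Igf2bp1* under quantile normalization (-0.71 and -1.30), a pseudocount of 0.5 (-0.43 and -1.02) and a pseudocount of 1 (-0.36 and -0.91), where *Igf2bp1* no longer met the 2-fold limit. A larger pseudocount shrinks the fold change of low genes by construction, while the cause of the quantile shift was not tested. With only the libraries marked as combined, an alternative chosen after seeing the data that leaves 1 KSFM-Ca2+ library, whose spread is assumed like that of the others, *Hmga2* was at -4.53 and *Igf2bp1* at -1.19. These values of *Hmga2* and *Igf2bp1* also moved by more than the spread between replicates, and the cause was not tested. Adding the coverage of the near copies, also chosen after seeing the data, did not move *Hmga1* or *Hmga2* by more than that spread. A filter on every library left fewer genes to test (11112) and 1032 instead of 1636 genes higher in DKSFM cells. With each library left out in turn, 1610 to 1704 genes were higher and 1295 to 1328 lower. Of 272 list counts under alternatives, 13 moved by over 1.5 times, all of them counts of few genes. With matches of 8 bases only, *Hmga1* had 0 and *Hmga2* and *Lin28b* had 1 each. Deviations from the line means correlated weakly between same-numbered libraries (r of -0.065, 0.0455 and -0.0241 over 8683 genes). Between libraries of different number r ran from -0.0509 to 0.0847. With 3 libraries per line this cannot tell whether the replicate numbers pair the libraries. A replicate block gave 1641 higher and 1304 lower genes and -4.42 for *Hmga2*.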
